A study of Homo sapiens with 2 samples.

Results

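Of 10102 CpG-rich promoters of autosomal protein-coding genes, 907 had no ATAC-seq peak within 1 kb of their transcription start site (TSS) in either replicate of CAMA-1, a human breast cancer cell line. ATAC-seq uses the Tn5 transposase to insert adapters into accessible chromatin, and a peak is an interval in which the authors' peak caller found more insertions than its background. The libraries came from 2 biological replicates of 50000 cells each, which were grown without treatment and form a single condition, so no groups of samples were compared. A promoter was counted as CpG-rich where the 500 bp on either side of the most 5′ annotated TSS of the gene had a CpG observed/expected ratio of at least 0.6 and a GC content of at least 55%. The observed/expected ratio (CpG o/e) is the number of CpG dinucleotides divided by the number that the C and G content alone would give. The 907 promoters were thus chosen by their lack of a peak, and that lack is a description and not a result. They are compared below with the 9081 CpG-rich promoters that had a peak in both replicates, called open here, while 114 promoters had a peak in 1 replicate.

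Most CpG-rich promoters lie in CpG islands, stretches whose CpGs are protected from methylation in the germline and which are usually free of nucleosomes around the TSS whether or not the gene is strongly transcribed. Some islands are closed in differentiated cells. Promoters of developmental regulators are commonly held by Polycomb complexes, promoters of germ cell genes are commonly silenced by DNA methylation, and in tumours further islands acquire DNA methylation.

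The bases just before the TSS are shown for 5 of the 907 promoters, each the one with the highest CpG o/e in its gene group, because they show how CpG-dense sequence without a peak can be. Each run holds the 250 bases that end at the base before the TSS, read 5′ to 3′ on the strand of the gene from hg38, and every CpG is in capitals. BNC1 encodes a zinc finger protein and lies at chr15:83284665-83284914 on the minus strand. HOXA5, at chr7:27143682-27143931 on the minus strand, and NKX6-2, at chr10:132786148-132786397 on the minus strand, encode homeodomain factors. SPAG6, at chr10:22345195-22345444 on the plus strand, encodes a sperm flagellar protein. ZNF677, at chr19:53254899-53255148 on the minus strand, encodes a zinc finger protein.
BNC1: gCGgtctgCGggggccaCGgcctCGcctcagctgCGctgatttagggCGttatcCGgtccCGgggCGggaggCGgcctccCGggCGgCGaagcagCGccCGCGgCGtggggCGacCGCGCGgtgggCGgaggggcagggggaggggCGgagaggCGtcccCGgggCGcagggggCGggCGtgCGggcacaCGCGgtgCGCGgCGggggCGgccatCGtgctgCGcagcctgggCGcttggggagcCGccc
HOXA5: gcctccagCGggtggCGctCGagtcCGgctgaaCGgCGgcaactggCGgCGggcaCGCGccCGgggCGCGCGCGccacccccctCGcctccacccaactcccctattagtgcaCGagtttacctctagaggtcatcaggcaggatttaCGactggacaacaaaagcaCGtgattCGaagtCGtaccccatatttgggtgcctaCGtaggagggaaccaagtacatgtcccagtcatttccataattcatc
NKX6-2: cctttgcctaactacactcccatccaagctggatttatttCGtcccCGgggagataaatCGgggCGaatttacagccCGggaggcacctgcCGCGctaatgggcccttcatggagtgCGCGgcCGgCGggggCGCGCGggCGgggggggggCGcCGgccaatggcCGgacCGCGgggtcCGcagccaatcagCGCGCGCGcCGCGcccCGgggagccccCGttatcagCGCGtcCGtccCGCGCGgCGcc
SPAG6: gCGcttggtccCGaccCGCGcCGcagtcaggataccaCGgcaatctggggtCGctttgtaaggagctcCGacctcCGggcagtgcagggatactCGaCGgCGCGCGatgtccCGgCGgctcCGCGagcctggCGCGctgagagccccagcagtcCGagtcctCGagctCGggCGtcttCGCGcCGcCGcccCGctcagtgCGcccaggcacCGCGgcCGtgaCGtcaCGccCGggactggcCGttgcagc
ZNF677: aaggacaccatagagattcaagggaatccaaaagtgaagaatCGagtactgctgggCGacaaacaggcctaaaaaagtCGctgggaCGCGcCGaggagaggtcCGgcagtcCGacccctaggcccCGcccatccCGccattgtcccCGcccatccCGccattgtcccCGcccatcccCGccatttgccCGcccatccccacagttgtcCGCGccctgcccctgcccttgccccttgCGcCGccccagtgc

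The same stretch of an open promoter is shown beside them. MYB, at chr6:135181058-135181307 on the plus strand, encodes a transcription factor and had the highest CpG o/e among the open promoters of the list of luminal breast genes.
MYB: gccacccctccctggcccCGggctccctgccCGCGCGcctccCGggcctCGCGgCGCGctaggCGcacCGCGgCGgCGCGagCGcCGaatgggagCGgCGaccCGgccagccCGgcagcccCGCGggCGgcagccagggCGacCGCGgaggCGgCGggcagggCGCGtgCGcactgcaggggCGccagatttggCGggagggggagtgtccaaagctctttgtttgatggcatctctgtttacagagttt

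The CpG count of the open stretch lay within the range of those without a peak. There were 39 CpGs before BNC1, 22 before HOXA5, 36 before NKX6-2, 37 before SPAG6 and 19 before ZNF677. There were 34 before MYB. The letters GGGCGG or their complement, the GC box, occurred 7 times before BNC1 and 5 times before ZNF677, where they recur in a short repeat. They occurred 1 time each before NKX6-2, SPAG6 and MYB and 0 times before HOXA5. The peak at the TSS of MYB had a fold enrichment over background of 40.7 in replicate 1 and 38.3 in replicate 2, and that of GAPDH, a glycolytic enzyme that served as an open control in the quality control of the libraries, 60.7 and 65.0. KAT6B, the other open control gene, had a peak with a fold enrichment of 167 and 153, but its CpG o/e of 0.591 left it just below the threshold for CpG-rich promoters.

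The share of CpG-rich promoters without a peak was 8.98% (95% Wilson interval 8.44 to 9.55), and a further 1.13% had a peak in 1 replicate. Of these 114 promoters, 55 had it in replicate 1 and 59 in replicate 2, so that the replicates disagreed on far fewer promoters than they both left without a peak. Among the 9009 promoters below the CpG or GC threshold, 3826 (42.5%, 41.5 to 43.5) had no peak. The intervals cover counting error alone, since promoters of a single cell line are not replicates, and no test was made across them.

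The labels call the cells epithelial, and the luminal markers were open, though most mesenchymal ones were open as well. All 11 luminal markers (such as ESR1, GATA3 and FOXA1) had a peak in both replicates at an annotated TSS, 9 of them at the most 5′ one. Of 7 blood markers, 2 had a peak at any TSS. Of 10 mesenchymal markers, 9 had one, with ZEB2 as the exception. The list of replicate 1 held 245736 peaks with fold enrichments from 2.76, and that of replicate 2 held 259745 from 2.65. Read depth is not given in the peak lists, and accessibility too weak to be called cannot be seen in them.

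The nearest peak was commonly a few kb away. Its median distance from the TSS was 5142 bp in replicate 1 and 4824 bp in replicate 2, and 4402 bp when the peaks of both replicates were used (quartiles 1881 and 13232). It was 1 to 3 kb away for 374 promoters (41.2%), 3 to 10 kb for 248 (27.3%), 10 to 50 kb for 224 (24.7%) and over 50 kb for 61 (6.73%). The distances in the replicates differed by at most 100 bp for 646 promoters (71.2%) and by more than 1 kb for 163 (18.0%). The nearest peak lay upstream for 49% of them (45.7 to 52.2), thus on neither side more often than the other beyond the interval. These nearest peaks had a median fold enrichment of 8.05 in replicate 1 and 7.30 in replicate 2, beside 8.28 and 7.96 for all peaks of the lists. At the open promoters the strongest peak within 1 kb had a median of 54.5 and 56.6.

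**Figure D1:**
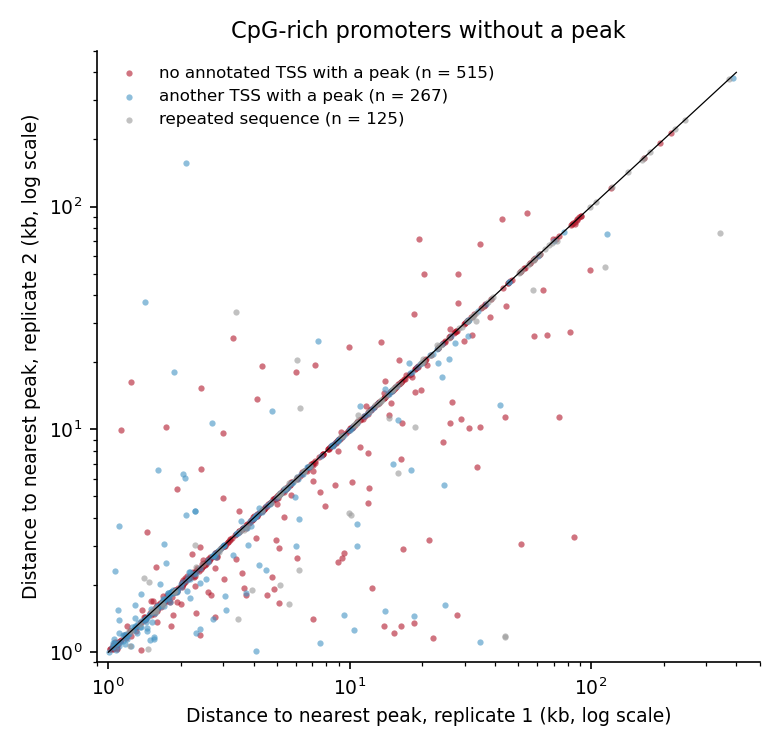
Distance from the TSS to the nearest peak in replicate 1 (horizontal axis, kb, log scale) and replicate 2 (vertical axis, kb, log scale) for the 907 CpG-rich promoters without a peak, coloured by whether another annotated TSS of the gene had a peak in any replicate or the sequence recurs in the genome. Most points lie on the line of equal distances, and 163 differ by more than 1 kb.

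Close to the thresholds, the choice of members turned on small differences. SDHAF3, an assembly factor of succinate dehydrogenase, entered with a peak at 1007 bp in both replicates, and FEV with one at 4087 and 1009 bp. KCNK13 stayed out with a peak at 1000 bp in replicate 1 and 1019 bp in replicate 2, and ITGB2 with 1511 and 999 bp. PSMG4 and NEXN entered with a CpG o/e of 0.601, whereas SLC12A4, just under the threshold, and TVP23A at 0.599 did not. CDH8 and TRIM5 entered at a GC content of 55%, and CA10 and CCDC15 stayed out at 54.9%.

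The 907 promoters were somewhat poorer in CpGs than the open ones, although both had passed the same thresholds. Their median CpG o/e was 0.767 (quartiles 0.698 and 0.851) against 0.808 (0.735 and 0.882), and the median number of CpGs in the window of 1 kb was 79 against 84. The difference of the medians was -0.0414, and it was -0.0112 among promoters with a CpG o/e of at least 0.75 and a GC content of at least 60%. GC content was nearly the same at 64.5% and 64.9%. The share without a peak was 13.5% (12 to 15.2) at a CpG o/e of 0.6 to 0.7, 10.1% (9.12 to 11.2) at 0.7 to 0.8, 7.28% (6.44 to 8.22) at 0.8 to 0.9 and 5.57% (4.56 to 6.79) at 0.9 to 1.0. Among the 287 promoters of 1.0 and over it was 8.36%, with a wide interval (5.68 to 12.1) that took in the neighbouring values.

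The 10 promoters of highest CpG o/e whose canonical TSS had no peak either belonged to NKX6-2, KCNA7, RGPD2, SALL3, BMP2, CRMP1, EN2, IGFBPL1, DLGAP2 and PAQR9. NKX6-2, a homeodomain factor of the neural tube, had a CpG o/e of 1.11 and 159 CpGs, and its nearest peak lay at 2291 bp in replicate 1 and 2297 bp in replicate 2. KCNA7, a voltage-gated potassium channel, had a CpG o/e of 1.10 and a peak of fold 20.5 and 20.1 at 1087 and 1047 bp. EN2, a midbrain homeodomain factor, had 154 CpGs and its nearest peak at 2667 and 1808 bp. BMP2, a bone morphogenetic protein, had no merged peak at 1 to 50 kb, and its nearest peak lay at 61188 and 61190 bp. SALL3 had 171 CpGs, the most of all members, no peak up to 5144 bp in either replicate, and its nearest peak had a fold of 75.7 and 88.0. In SALL3, CRMP1 and DLGAP2 another annotated TSS of the gene had a peak in both replicates.

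Clustered HOX genes, which specify position along the body axis, were among the groups with the largest shares without a peak. Of the 23 with a CpG-rich promoter, 12 had no peak (52.2%, 33.0 to 70.8), compared with 8.98% of all CpG-rich promoters. By cluster, 5 of 6 promoters of HOXA, 1 of 4 of HOXB, 2 of 6 of HOXC and 4 of 7 of HOXD had none. HOXA5 had its nearest peak at 6802 bp in replicate 1 and 6753 bp in replicate 2. HOXC12 had one at 1493 and 1500 bp with a fold of 28.1 and 30.5, and HOXD9 a weak one at 1641 and 1669 bp with a fold of 4.60 and 4.42. HOXD13 lacked one up to 4031 and 4073 bp. These promoters did not lie in peak-poor DNA. The median number of merged peaks at 1 to 50 kb was 23.5 for the 12 HOX promoters, against 8 for all 907.

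Developmental transcription factors outside the HOX clusters made up the largest group by number. Of 230 CpG-rich promoters 89 had no peak (38.7%, 32.6 to 45.1), 135 had one in both replicates and 6 in 1 replicate. The list was built from gene symbols and holds a few neighbours that are not factors, such as FOXL2NB. By family, no peak was found at 6 of 7 PAX promoters, 3 of 3 HMX, 3 of 3 SALL, 6 of 12 NKX, 6 of 14 SOX, 3 of 8 TBX, 3 of 8 POU, 11 of 38 FOX, 2 of 10 PRDM, 1 of 6 IRX and 0 of 3 ONECUT promoters. The POU promoters without a peak were those of POU4F1, POU4F2 and POU4F3, and the 1 PAX promoter with a peak was that of PAX9. Of the 89, 44 had a peak at 1 to 3 kb, 30 at 3 to 10 kb, 13 at 10 to 50 kb and 2 farther away. MYOD1, the muscle determination factor, had its nearest peak at 2494 and 2478 bp, OLIG2, a factor of oligodendrocytes, at 3920 and 3913 bp, and CDX2, a gut factor, at 2540 and 2138 bp. PAX6, an eye and brain factor with 66 annotated TSSs, had no peak up to 3029 and 3019 bp from its most 5′ TSS but a peak in both replicates at another.

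**Figure D2:**
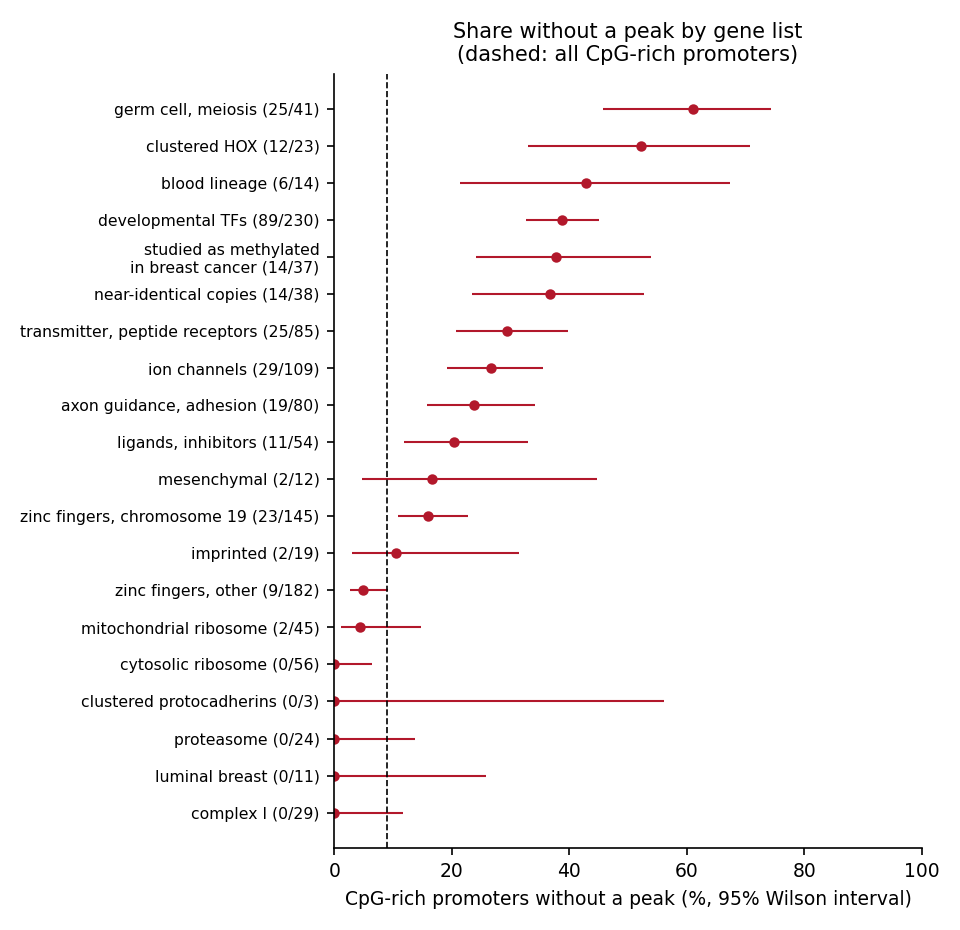
Share of CpG-rich promoters without a peak in either replicate (points, percent, with 95% Wilson intervals) for 20 gene lists, with the number without a peak and the number of CpG-rich promoters beside each name, and the 8.98% of all CpG-rich promoters as a dashed line. Germ cell, HOX, blood and developmental factor genes stand to the right of the line, and the ribosome, proteasome, complex I and luminal breast genes stand at 0. The lists overlap, so a promoter can be counted in several of them.

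Germ cell and meiosis genes had the largest share without a peak of the 20 lists, 25 of 41 (61.0%, 45.7 to 74.3). SPAG6 had its nearest peak at 4151 bp in replicate 1 and 4175 bp in replicate 2. SPACA1, which encodes an acrosomal membrane protein of sperm, had a weak one of fold 4.37 and 3.76 at 24737 and 24752 bp. MOV10L1, a helicase of the piRNA pathway, had one at 1550 and 1173 bp and a further TSS with a peak. DDX4, the germ cell helicase VASA, lacked a peak up to 23275 and 23213 bp, and PIWIL1, a piRNA-binding Argonaute protein, up to 2051 and 2076 bp. In 6 of the 25 genes another annotated TSS had a peak, and 8 had no peak anywhere between 1 kb before and 1 kb after the gene. Without the promoters whose sequence was found elsewhere in the genome, 20 of 36 had no peak.

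Of 37 CpG-rich promoters widely studied as methylated in breast cancer, 14 had no peak (37.8%, 24.1 to 53.9), compared with 8.98% of all. DNA methylation was not measured in these samples. The 14 were those of BNC1, HOXA5, SFRP1, GREM1, ADAM23, CCND2, SOX17, HS3ST2, GATA5, TMEFF2, NEUROD1, SFRP5, RASSF1 and CDH13. The gene lists overlap, so the same promoter can be counted in several of them. HOXA5 was also counted among the HOX genes, and SOX17, GATA5 and NEUROD1 among the developmental factors. SFRP1, GREM1 and SFRP5 were also counted among the ligands and inhibitors, and CDH13 among the axon guidance and adhesion genes. SFRP1 and SFRP5 encode secreted inhibitors of WNT signalling. SFRP1 had a weak peak of fold 4.37 and 4.42 at 1061 and 1152 bp, just beyond the limit, and a peak at another TSS in both replicates, whereas the nearest peak of SFRP5 lay at 2791 and 2748 bp. RASSF1, a regulator of RAS signalling, also had another TSS with a peak, and its nearest peak had a fold of 22.3 and 24.1 at 1804 and 1685 bp.

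CCND2, cyclin D2, had its nearest peak at 7193 bp in replicate 1 and 7092 bp in replicate 2, with a fold of 20.2 and 20.3. GREM1, a BMP antagonist, had a weak one of fold 4.37 and 4.20 at 5343 and 4055 bp. HS3ST2, a heparan sulfate sulfotransferase, had the most distant one of the 14, at 32776 and 32774 bp. ADAM23, a neuronal surface protein, lacked a peak up to 11004 and 10997 bp. CDH13, an atypical cadherin, lacked one up to 5052 bp in both replicates. The remaining 6 (BNC1, HOXA5, SOX17, GATA5, TMEFF2 and NEUROD1) had theirs between 1051 bp (GATA5, replicate 1) and 6802 bp (HOXA5, replicate 1). The other 23 promoters of the list were open, with a median fold of 38.2 and 38.3.

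Genes of other cell types fell on both sides. Of 14 CpG-rich promoters of blood lineage genes, 6 had no peak (42.9%, 21.4 to 67.4): those of IKZF1, IRF8, PAX5, TAL1, KIT and IRF4. Another annotated TSS had a peak in 2 of these 6 genes, among them PAX5, which was also counted among the developmental factors. IKZF1, a lymphoid zinc finger factor with 156 CpGs in its window, had its nearest peak at 1297 and 1249 bp, and IRF8, a myeloid and B cell factor, at 1400 and 1432 bp. TAL1, a factor of blood stem cells, lacked one up to 30689 and 30656 bp. Of 12 mesenchymal promoters, 2 had no peak (16.7%, 4.70 to 44.8). TWIST2, a mesenchymal bHLH factor, had its nearest peak at 6077 and 6004 bp. FBN1, fibrillin, had one at 1601 and 1582 bp and another TSS with a peak. None of the 11 CpG-rich luminal breast promoters lacked a peak, and a count of 0 of 11 allows a share of up to 27.3%. Their median peak fold was 89.0 in replicate 1 and 90.2 in replicate 2, beside 54.5 and 56.6 for all open promoters.

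Receptors, ion channels, axon guidance and adhesion genes, and developmental ligands were next. No peak was found at 25 of 85 promoters of receptors for transmitters and peptides (29.4%, 20.8 to 39.8), at 29 of 109 of ion channels (26.6%, 19.2 to 35.6), at 19 of 80 of axon guidance and adhesion genes (23.8%, 15.8 to 34.1) and at 11 of 54 of developmental ligands and their inhibitors (20.4%, 11.8 to 32.9). DRD4, a dopamine receptor, had a weak peak of fold 5.29 and 4.42 at 4318 and 4301 bp, and VIPR2, a receptor of vasoactive intestinal peptide, one at 2689 and 2683 bp. GLRB, the beta subunit of the glycine receptor, lacked a peak up to 20936 and 19352 bp. For KCNG2, a potassium channel subunit, the replicates differed, since a peak of fold 5.06 at 1241 bp in replicate 1 had no counterpart in replicate 2, where the nearest lay at 16330 bp. CNTN3, a contactin of neurons, showed the reverse, with 18422 bp in replicate 1 and a peak of fold 4.42 at 1451 bp in replicate 2. CDH4 (R-cadherin) lacked a peak up to 8704 and 8705 bp, and CDH23, a cadherin of hair cells, up to 1054 and 1104 bp. CNTN3 and CDH23 each had another annotated TSS with a peak in both replicates.

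Housekeeping promoters were almost all open. No CpG-rich promoter without a peak was found among 56 cytosolic ribosomal protein genes, 29 complex I genes and 24 proteasome genes, counts that allow shares of up to 5.36%, 10.3% and 12.5%. Of 45 mitochondrial ribosomal protein genes there were 2. MRPS22 had a peak at another TSS, and its most 5′ TSS lay 25687 and 25582 bp from the nearest peak. MRPL23 had its nearest peak at 2821 and 2831 bp and none at another TSS. These 2 counts are few, and 4.44% (1.23 to 14.8) is not apart from 8.98%. Of 19 imprinted genes 2 lacked a peak. NDN, a neuronal growth suppressor, lacked one up to 36413 and 36414 bp, and NNAT had one of fold 37.0 and 41.4 at 1033 and 1031 bp. The clustered protocadherins had 3 CpG-rich most 5′ TSSs, of which none was among the 907.

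For zinc finger genes the counts were taken by chromosome. On chromosome 19, home of the large clusters of KRAB zinc finger genes, 23 of 145 promoters had no peak (15.9%, 10.8 to 22.7), and on the other autosomes 9 of 182 (4.95%, 2.62 to 9.13). The 23 lay in sparse DNA, with a median distance to the nearest peak of 30087 bp and a median of 2 merged peaks at 1 to 50 kb. ZNF677 had no merged peak in that range and its nearest at 57452 and 57485 bp. ZSCAN18 lacked a peak up to 19527 and 19568 bp from its most 5′ TSS, although its canonical TSS had one. ZNF582 lacked a peak up to 10205 and 10173 bp. Of the 9 elsewhere, ZNF354C showed a difference between the replicates, with a peak of fold 3.91 at 1930 bp in replicate 1 and the nearest at 5396 bp in replicate 2. ZNF232 had another TSS with a peak, and over 10% of the sequence of ZNF124 was found elsewhere in the genome.

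In all, 270 of the 907 were in at least 1 of the lists (29.8%) and 637 in none. The share of all CpG-rich promoters in any list was not counted, so 29.8% has no value to stand beside. Among the 637, several well-known genes are named here after their values were seen. SLC22A3, an organic cation transporter whose locus served as a closed control in the quality control of the libraries, had a CpG o/e of 0.918 and no peak up to 38500 bp in either replicate. EGFR, the epidermal growth factor receptor, had a CpG o/e of 0.926, its nearest peak of fold 5.75 and 6.41 at 15424 and 15328 bp, and no peak within 1 kb of any of its 12 annotated TSSs in either replicate. PSAT1, an enzyme of serine synthesis, lacked a peak up to 15056 and 15009 bp. NPY, the precursor of neuropeptide Y, had its nearest peak at 6078 and 6064 bp, OXT, the precursor of oxytocin, at 1769 and 1758 bp, and LEP, the adipocyte hormone leptin, at 3928 and 3922 bp.

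Some of the member genes had another start in open chromatin. In 246 of the 907 genes (27.1%, 24.3 to 30.1) another annotated TSS had a peak in both replicates, and in 288 (31.8%) in at least 1. The share with such a peak in both replicates was 87.8% (87.1 to 88.5) among the open promoters. Among the promoters below the CpG thresholds and without a peak it was 27.1% (25.7 to 28.5), as in the members. Other TSSs within 1 kb of the most 5′ one were counted too. Such a TSS can share the peak of an open promoter, and in a member it lies in the empty stretch. The gap between members and open promoters is thus partly set by their choice. The genes without a peak had a median of 4 annotated TSSs and the open ones 7. The most 5′ TSS was the Ensembl canonical one in 547 members (60.3%) and in 45.6% of the open genes. The canonical TSS lacked a peak in 830 members (91.5%, 89.5 to 93.2). That count includes the 547, for which the choice of members fixed the lack of a peak. In 240 members (26.5%) no merged peak was found from 1 kb before to 1 kb after the gene. Among the promoters below the CpG thresholds and without a peak this share was 38.4%, and among the open ones their choice set it to 0.

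Sequence that occurs more than once in the genome was commoner among the members than among the open promoters. For 125 members (13.8%, 11.7 to 16.2) over 10% of the words of 50 bases around the TSS were found elsewhere in hg38. The same held for 315 open promoters (3.47%, 3.11 to 3.87). It also held for 814 of the 3826 promoters below the CpG thresholds and without a peak (21.3%), a larger share than in the members. Below those thresholds and with a peak in both replicates, it held for 7.16%. How reads with several matches were treated is not given in the sources used here, and the part of repeated sequence in the missing peaks was not tested. These 125 promoters had a median distance of 12791 bp and a median of 4 merged peaks nearby. Of the 38 promoters of families with near-identical copies, 14 had no peak (36.8%), and none of the 5 whose sequence was not found elsewhere did. Among them were RGPD2, 162088 and 162074 bp from its nearest peak with 63.1% of its words found elsewhere, RGPD1 with 57.8% and RGPD6 with 77.2%. Without all CpG-rich promoters of repeated sequence, members or not, 782 of 9653 had no peak (8.10%). Of these 782, 267 had another TSS with a peak and 515 none.

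The surroundings of the 907 promoters also held fewer peaks. Their median number of merged peaks at 1 to 50 kb from the TSS was 8 (quartiles 3 and 15), compared with 17 (9 and 27) for the open promoters. With the peaks of each replicate alone, the medians were 7 against 15 in both replicates. The promoters below the CpG thresholds and without a peak had 6 and 7, close to the members. Of the members 61 (6.73%) had no merged peak in this range, beside 0.341% of the open promoters and 6.87% of those below the CpG thresholds without a peak. Another protein-coding TSS lay within 1 kb in 7.39% of the members (5.86 to 9.27) and 26.1% of the open promoters (25.2 to 27). The next protein-coding TSS beyond 2 kb had a peak in both replicates for 63.3% of the members (60.1 to 66.4). For the open promoters this share was 79.3% (78.5 to 80.1), and for those below the CpG thresholds without a peak 49.3% (47.8 to 50.9). Of all promoters, 89.9% of the CpG-rich ones and 53.6% of those below the thresholds had a peak in both replicates.

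**Figure D3:**
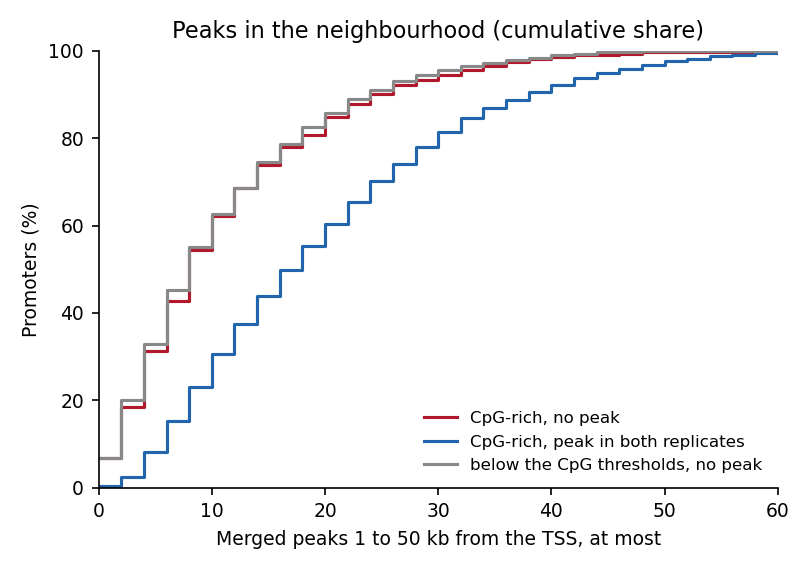
Cumulative share of promoters (vertical axis, percent) with at most a given number of merged peaks at 1 to 50 kb from the TSS (horizontal axis), for the CpG-rich promoters without a peak, the open ones and the promoters below the CpG thresholds without a peak. The curves of both sets without a peak run together to the left of that of the open promoters, with medians of 8, 17 and 7.

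Beyond the empty 1 kb, the members were less often covered by peaks than the open promoters at the distances given here. At 2 kb downstream of the TSS, peaks covered 5.62% of the members in replicate 1 and 6.06% in replicate 2, and at 20 kb downstream 3.42% and 3.75%. The open promoters had 16% and 16.4% at 2 kb and 9.65% and 9.91% at 20 kb, and 93.6% and 93.8% at the TSS itself.

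**Figure D4:**
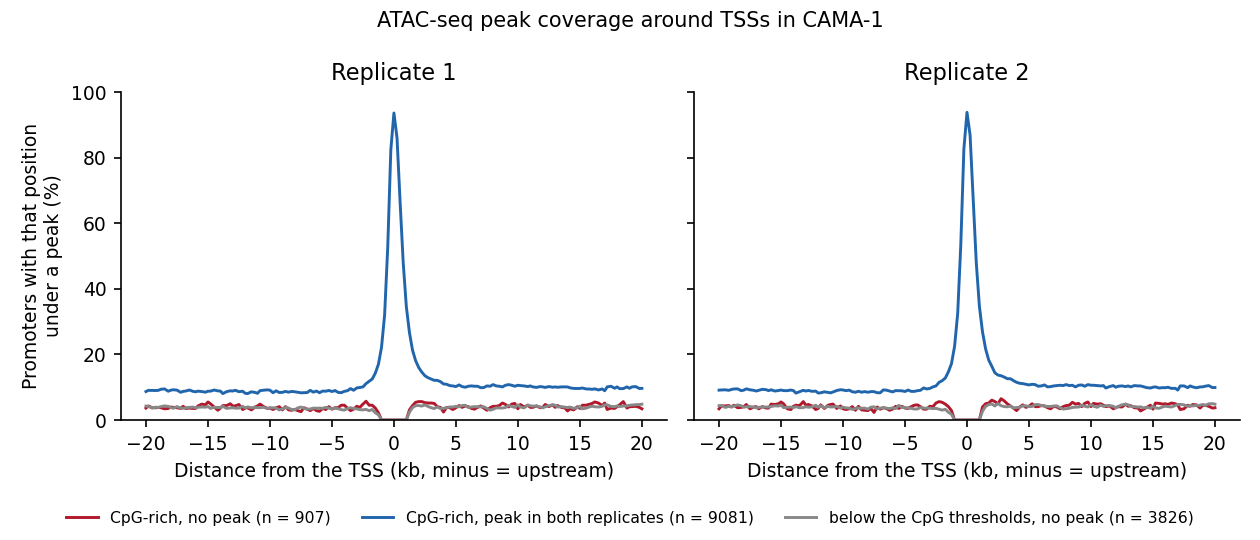
Share of promoters (vertical axis, percent) for which a position at a given distance from the TSS (horizontal axis, kb, upstream negative) lay under a peak of replicate 1 (left) or replicate 2 (right). The members are at 0 within 1 kb by their choice and at a few percent elsewhere (5.62% at 2 kb and 3.42% at 20 kb downstream in replicate 1), while the open promoters rise to 93.6% and 93.8%.

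Short sequence motifs of factors that bind CpG-rich promoters were counted as exact letters on either strand in the 1 kb around each TSS. ETS factors such as GABPA bind CCGGAAG, and this motif was found in 139 members (15.3%, 13.1 to 17.8) and 2775 open promoters (30.6%, 29.6 to 31.5), with 29.0% of all CpG-rich promoters and 20.9% of all autosomal promoters holding it. Other motifs differed less in percentage points. The NRF1 letters GCATGCGC were found in 5.29% of members and 9.03% of open promoters, the YY1 letters AAGATGG in 10.1% and 15.4%, the CREB and ATF letters TGACGTCA in 2.98% and 4.79%, and the ZBTB33 letters TCTCGCGA in 1.54% and 3.55%. The intervals of members and open promoters did not overlap for these 5 motifs. The shares of CpG-rich and of all autosomal promoters were 8.61% and 5.89% for NRF1, 14.8% and 16.3% for YY1, 4.57% and 3.22% for CREB and ATF, and 3.34% and 2.12% for ZBTB33.

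The E-box CACGTG (19.3% of members, 21.8% of open promoters, 21.6% of CpG-rich and 18.1% of all promoters) and the CCAAT box CCAAT (56.6%, 59.0%, 58.7% and 65.5%) had overlapping intervals, as had the REST letters TCAGCACC, the left part of its site, (6.73%, 5.52%, 5.64% and 5.78%) and the AP-1 letters TGAGTCA (4.74%, 6.42%, 6.26% and 10.8%). The GC box GGGCGG of SP and KLF factors was nearly universal in both (94.8%, 93.2 to 96.1, and 97.1%, 96.8 to 97.4, with 96.9% of CpG-rich and 72.2% of all promoters). Its intervals did not overlap. The forkhead letters TGTTTAC were found in 3.75% of members and 5.61% of open promoters, with overlapping intervals, beside 5.43% of CpG-rich and 8.26% of all promoters. The TATA box TATAAA went the other way, with 16.2% of members (14.0 to 18.7) and 13.0% of open promoters (12.4 to 13.7), beside 13.3% of CpG-rich and 27.0% of all promoters. The intervals of the TATA box did not overlap either. None of the 12 motifs lies within the letters of another. A match is a match of letters and not a bound site.

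The ETS letters went with a smaller share without a peak at each CpG density. Of all CpG-rich promoters with them 4.74% (4.03 to 5.57) had no peak, and of those without them 10.7% (10.0 to 11.4). At a CpG o/e of 0.6 to 0.7 the shares were 8.20% and 15.6%, at 0.7 to 0.8 they were 4.50% and 12.7%, at 0.8 to 0.9 they were 3.82% and 8.67%, and at 0.9 to 1.0 they were 3.49% and 6.32%, with intervals that overlapped in the last. Among the promoters of 1.0 and over they were 4.29% (1.47 to 11.9) and 9.68% (6.42 to 14.3), which overlapped as well. By list, 11 of the 23 zinc finger promoters of chromosome 19 without a peak held the ETS letters, but 9 of the 89 developmental factors, 1 of the 29 ion channels and 0 of the 11 ligands and inhibitors did. Without promoters of repeated sequence, the ETS shares were 14.3% of members and 30.5% of open promoters.

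**Figure D5:**
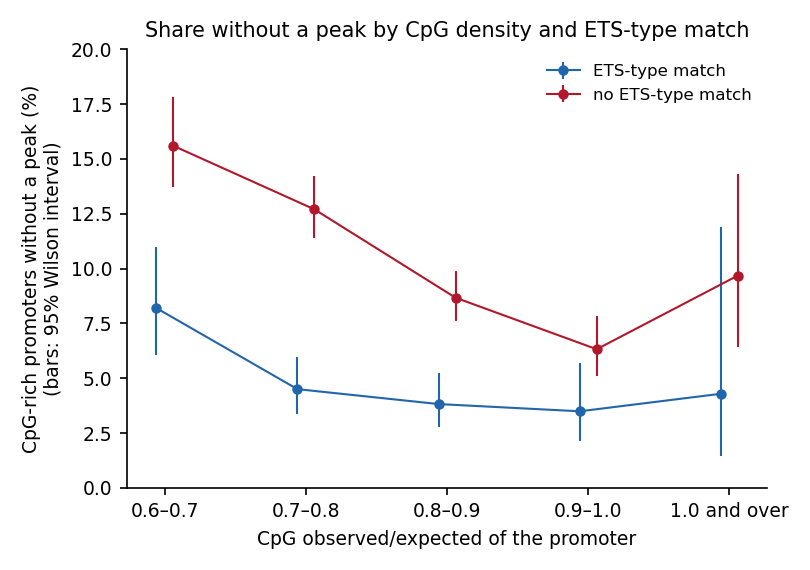
Share of CpG-rich promoters without a peak (vertical axis, percent, with 95% Wilson intervals) by CpG observed/expected ratio (horizontal axis) for promoters with and without the ETS letters on either strand. The share falls from 15.6% to 6.32% between 0.6 and 1.0 without the letters and from 8.20% to 3.49% with them.

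The members were spread over all autosomes, with the largest shares without a peak on chromosome 18 (28 of 178, 15.7%, 11.1 to 21.8) and chromosome 21 (15 of 104, 14.4%, 8.94 to 22.4) and the smallest on chromosome 14 (15 of 321, 4.67%, 2.85 to 7.57). On chromosome 21 the share was 7.37% without promoters of repeated sequence, and on chromosome 18 it was 15.3%. For 586 of the 907 members neither neighbouring CpG-rich promoter was a member. The others formed 102 pairs, 17 runs of 3, 7 runs of 4, 4 runs of 6 and 2 runs of 7 neighbouring CpG-rich promoters without a peak. Members were 8.98% of all CpG-rich promoters, and how many would stand alone if scattered at that share was not computed.

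The 2 runs of 7 differed in their setting. On chromosome 12 the run from CCND2 to PLEKHG6 (chr12:4269771-6310436) held DYRK4, NTF3 and the potassium channels KCNA6, KCNA1 and KCNA5, with 144 merged peaks within it. Their nearest peaks lay between 1763 bp and 27684 bp away. On chromosome 19 the run of ZSCAN5A, ZNF582, ZNF667, ZNF471, ZFP28, ZNF470 and SMIM17 (chr19:56368383-56643159) had 4 merged peaks in 0.275 Mb, or 14.6 per Mb, compared with 94.6 per Mb over the autosomes. ZNF471 lay farthest from a peak, at 87182 bp in replicate 1 and 87144 bp in replicate 2. On chromosome 18 the run of AKAIN1, EPB41L3, TMEM200C, L3MBTL4, ARHGAP28 and LAMA1, the last of which encodes a laminin chain, had 32 merged peaks in 1.92 Mb (16.7 per Mb). The runs of PCDH8 with 5 copies of PRR20 on chromosome 13 and of 6 copies of TP53TG3 on chromosome 16 were made of repeated sequence, apart from PCDH8.

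The 5 members farthest from a peak were NRG1, CNTNAP3C, TP53TG3D, TP53TG3 and BRD7. NRG1, a ligand of ERBB receptors, lacked a peak up to 386854 bp in replicate 1 and 378700 bp in replicate 2 at its most 5′ TSS, but its canonical TSS had one. For CNTNAP3C, TP53TG3D and TP53TG3 the share of words found elsewhere was 85.5%, 85.2% and 100%. BRD7, a bromodomain subunit of a SWI/SNF complex that is expressed in most cells, had 3.47% of such words and its nearest peak at 214157 and 213707 bp. It lay in a stretch without any peak of either replicate of 586 kb (chr16:50155282-50741489), which also held the TSSs of ADCY7, NKD1, SNX20 and NOD2. The CpG-rich promoters of ADCY7 and NKD1, an inhibitor of WNT signalling, were members too, at 91306 and 90856 bp and at 193094 and 193162 bp from the nearest peak. On the autosomes 32 such stretches of at least 500 kb and with at most 1% of unknown bases were found, 7 with a CpG-rich TSS, and this was the only one with 3 or more. Copy number was not analysed here, and in a peak list a locus without DNA and one without accessible chromatin cannot be told apart. The CpG-rich promoters that flank it, TENT4B and CYLD, both had a peak in both replicates.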

How the data were processed

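ATAC-seq peaks of CAMA-1 cells from 2 biological replicates were analysed. The authors trimmed reads, aligned them and called peaks in each replicate separately, and the submitters' processing notes name Trim Galore 0.6.5, Bowtie2 2.3.5.1, MACS2 2.2.6 and hg38. MACS2 settings and the treatment of duplicate and multiply matching reads are not given in the sources used here. For each peak the authors deposited its ends, a score, its fold over background (a linear ratio), its −log10 p and its −log10 q. All peaks lay within the chromosomes of hg38. The peak lists hold no read counts, the read totals listed by the study were not used, and precision is given by the agreement of the replicates.

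TSSs came from GENCODE release 44, and sequence from hg38. Distances were measured from the TSS to the nearest edge of a peak, and overlapping peaks of the replicates were merged for counts at 1 to 50 kb. Repeated sequence was found by exact words of 50 bases on both strands. With a single condition no test was made, and shares carry 95% Wilson intervals, which cover counting error only. The distance and word functions were tested on simulated data. Python 3.11.15, numpy 2.4.6, pandas 2.3.3, SciPy 1.17.1 and matplotlib 3.10.9 were used.

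The members, gene lists, motifs and alternatives were chosen with earlier results of these data known, so the counts of lists are not independent evidence. The genes named are all members in the luminal, methylated and mesenchymal lists, the 3 of highest CpG o/e in each other list with at least 3 members, the 10 of highest CpG o/e whose canonical TSS lacked a peak, the 5 farthest from a peak, the 2 on either side of each threshold, the genes of the 5 longest runs, and the open controls GAPDH and KAT6B. DDX4, PIWIL1, HOXD13, MYOD1, OLIG2, CDX2, PAX6, the families of factors, TAL1, NDN, NNAT, MRPS22, MRPL23, ADCY7 and NKD1 were named after their values were seen, as were the genes in none of the lists. Some promoters that these rules name are not reported here.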

Additional observations from a re-analysis of the deposited data

How the results depend on the processing

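No paired analysis was possible because there was 1 group of samples. Each of 7 results was computed under 10 alternatives. Only the CpG o/e and ETS differences could change sign, and neither did. The number of promoters was taken as moved beyond 1.5 times, and the other results beyond the spread between the values of the single replicates, so that small shifts count as moves. The number was 1061 when peaks under a −log10 q of 10 were dropped, 1123 with 500 bp, 998 with the canonical TSS, 1042 with 250 bp either side, 782 without repeated sequence and 876 with 1 promoter per 1 kb, against 907. With peaks of a −log10 q of at least 10, the median distance was 5202 bp, peaks at 1 to 50 kb were 50.0% of those of open promoters, 25.1% of members had another open TSS, the CpG o/e difference was -0.0436, and 43.5% of developmental factor promoters had no peak. With 500 bp in place of 1 kb, these values were 2730 bp, 52.9%, -0.0446 and 47.8% (other TSS within the spread), and the ETS difference was -16.0 points. With 3 kb, 533 promoters remained, with 10724 bp, 29.4%, 29.8%, -0.0441 and 19.6%, while the share of all CpG-rich promoters without a peak was 5.28%. With a CpG o/e of at least 0.75 and GC of at least 60%, 435 of 5813 promoters had no peak, with 3673 bp, a CpG o/e difference of -0.0112, an ETS difference of -15.9 points and 36.2% of developmental factors. With 250 bp either side, the percentage of peaks nearby was 50.0% and the CpG o/e difference -0.0501. Without repeated sequence, the values were 3918 bp, 29.5% with another open TSS, -0.0352 and -16.2 points. With 1 promoter per 1 kb, the ETS difference was -14.1 points. With the canonical TSS, the other 6 results stayed within the spread. The cause of these shifts was not tested.

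Leaving out a replicate gave 962 to 966 promoters, 4473 to 4831 bp, 46.7% of the peaks of open promoters, 28.9% to 31.5% with another open TSS, -0.0436 to -0.0412 in CpG o/e, -15.4 to -14.8 points for ETS and 39.1% to 40.9% of developmental factors.

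A peak list gives no signal below its threshold, so lack of a peak is not lack of accessibility. The most 5′ TSS need not be the one used in these cells. Transcription, DNA methylation, histone marks and copy number were not analysed here.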
